A study of Mus musculus with 6 samples.

Results

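The insulin-like growth factor 1 (IGF1) axis was followed in the mammary gland through 8 genes, the ligand Igf1, its receptor Igf1r and the binding protein genes Igfbp2 to Igfbp7. Members were chosen by gene name, as all probe sets that the array's annotation assigns to exactly 1 gene when that gene is on this list. The rule found 11 of the 12488 probe sets in the deposited table, and they measured 7 of the 8 genes, among 8251 genes on the array. Igfbp5 had 0 such probe sets, because the 1 probe set that names it also names a second gene, and it was not analysed here. The tissue was the thoracic mammary gland, taken at 16 weeks from virgin females with F1 CF-1/FVB parentage. One group was wild type and the other carried a transgene that overexpresses luteinizing hormone (LH), the pituitary hormone that drives the gonads to make sex steroids. There were 3 Affymetrix arrays for either group, every one hybridised with a pool of RNA from 3 mice, which makes 9 mice per group. The promoter of the transgene is not given in the sources used here.

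IGF1 is a growth factor made by the liver and, within the mammary fat pad, by stromal cells, in response to growth hormone. It binds the receptor tyrosine kinase encoded by Igf1r, which signals through insulin receptor substrates, AKT and the MAP kinases, and in the mammary gland it is known for its part in the outgrowth of ducts. The IGF binding proteins are secreted carriers that hold IGFs away from the receptor or deliver them to it, and proteases that cut them set the IGF free.

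Values are signals made with MAS5, the array maker's summary of the probes of a probe set, on a linear scale. They are given per array and as mean ± SD (n = 3 pools per group). Differences subtract the wild type mean from the LH transgenic mean after taking log2(signal + 80), which understates the change of dim genes, and a probe set was called at a limma adjusted p under 0.05. Testing required a mean of 336 or more over the 6 arrays, which left 9 of the 11 members among 7455 in all. A probe set could reach that mean through the group where it was bright. The arrays had medians between 540.6 and 583.5. Keratin genes of the luminal epithelium were bright, with Krt18 at 13210 ± 1081 in wild type glands and 13650 ± 1931 in LH transgenic ones (adjusted p 0.87). Adipoq, the fat cell hormone adiponectin, was at 48800 ± 2581 and 30150 ± 1314, so both the epithelium and the fat pad were represented on the arrays.

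Igf1 and Igfbp3 fell in the LH transgenic glands, each by 1 of its probe sets. The brighter Igf1 probe set was 2.27-fold lower and the brighter Igfbp3 probe set 3.46-fold lower, on the log2(signal + 80) scale. In RNA from whole glands, fewer cells of a type and less RNA per cell cannot be told apart. The called probe sets were 2 of 9 tested members (22.2%), close to the 21.3% called over all 7455 probe sets, so the share of calls does not set the axis apart. No member was called higher, and of those with a difference above 0 the p-values from limma before adjustment were 0.959 and 0.763. In 5 of the 9 tested member probe sets (55.6%), one each of Igf1, Igf1r, Igfbp3, Igfbp4 and Igfbp7, every LH transgenic array lay below every wild type array. That pattern was found in 19.8% of all tested probe sets, and separation in either direction in 40.4%. The median difference of the 9 members was -0.39, against 0.02 for all tested probe sets.

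**Figure D1:**
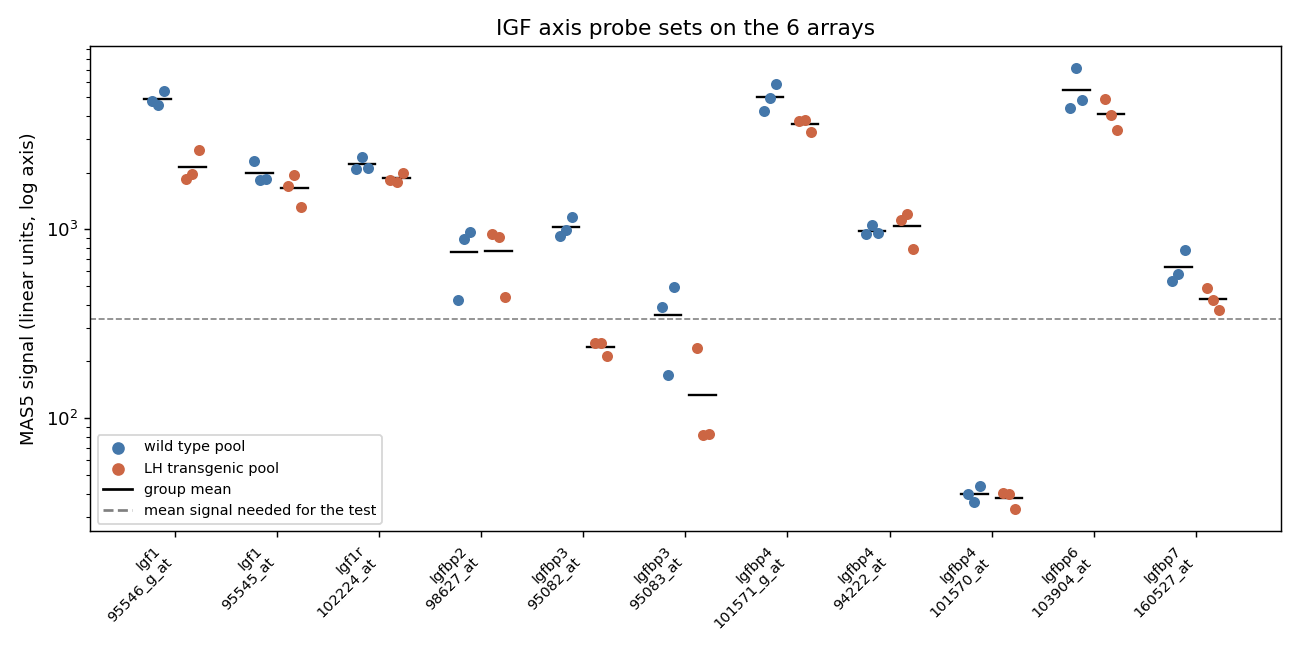
MAS5 signal (log axis) of the 11 member probe sets on the 3 wild type and 3 LH transgenic arrays, with a line at each group mean and a dashed line at the mean signal of 336 needed for the test. Groups are apart for Igf1 (95546_g_at) and Igfbp3 (95082_at), lie close together for Igf1r, and overlap for Igfbp2 and Igfbp6.

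Igf1, the ligand, was measured by a pair of probe sets drawn from the same sequence record. Probe set 95546_g_at had signals of 4789.6, 4579.6 and 5416.1 on wild type arrays 1 to 3 and of 1854.6, 1954.5 and 2639.9 on LH transgenic arrays 1 to 3. The groups did not overlap, and LH transgenic pool 3 was the highest of its group. The mean fell from 4928 ± 435 to 2150 ± 428 (log2 -1.18, SE 0.16, limma adjusted p 0.00132). Leaving out each array in turn gave differences from -1.33 to -1.09, and the call held under every one of the 18 other settings tried for it.

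The second Igf1 probe set, 95545_at, was not called. Its signals were 2313.3, 1821.5 and 1847.2 in wild type and 1690, 1949.9 and 1313.9 in LH transgenic glands. The groups overlapped, since LH transgenic pool 2 exceeded wild type pools 2 and 3. The difference was -0.27 (95% interval -0.66 to 0.12, limma adjusted p 0.306). The gap between the probe sets, taken within each array, was 1.02, 1.29 and 1.51 on the log2 scale in wild type and 0.13, 0 and 0.96 in LH transgenic glands. It was smaller on every LH transgenic array than on any wild type array, by 0.91 on average (two-sided exact permutation p 0.1, the smallest that 3 arrays against 3 allow). The pair of the brighter Igfbp4 probe sets narrowed in the same way, by 0.52 on average and with the same p of 0.1 in the exact permutation test. The Igfbp3 pair narrowed by 0.78 on this scale, also with p 0.1 in that test. Its dimmer probe set, 95083_at, read only 81.3 and 82.6 on LH transgenic arrays 2 and 3. Those signals are close to the constant added before taking logs, which shrinks the gap. On LH transgenic array 1, where the gap was smallest (0.07), the signals were 250.9 and 234.8, neither of them close to that constant. How much of the Igfbp3 narrowing the constant makes was not tested. The call for Igf1 rests on the brighter of its probe sets.

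The sequence just upstream of Igf1 is shown because the ligand is one of the called members. It covers the 250 bases before the 1 start listed for the gene in the RefSeq promoter table (GRCm38.p6, chr10:87860861-87861110, plus strand), in which all 8 member genes were found. The motifs searched on both strands of the same window were the TATA box (TATANA), the GC box (GGGCGG), the STAT site (TTCNNNGAA), the estrogen response element (GGTCA facing its inverted repeat, 3 bases apart) and the CCAAT box (CCAAT). Capitals mark every match.
Igf1: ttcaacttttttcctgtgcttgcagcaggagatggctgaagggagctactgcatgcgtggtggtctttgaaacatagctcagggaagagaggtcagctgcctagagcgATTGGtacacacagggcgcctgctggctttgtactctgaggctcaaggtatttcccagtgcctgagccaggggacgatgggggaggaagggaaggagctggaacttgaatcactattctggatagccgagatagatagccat
It held 1 match, a CCAAT box read on the minus strand that begins 142 bases upstream of the start, where 33.8% of the 32817 promoter windows in the table hold that motif. Igf1 is known to be transcribed from alternative leader exons, and which of them the probe sets read was not analysed here.

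Igf1r, the receptor that carries the IGF1 signal into the cell, had signals of 2079.1, 2421.9 and 2120.1 in wild type and 1816.9, 1779.3 and 2000.3 in LH transgenic glands. Every LH transgenic array lay below the wild type arrays, with a narrow gap between 2000.3 and 2079.1. The difference of -0.23 (95% interval -0.53 to 0.06) was not called (limma adjusted p 0.245), so a fall to about 0.85 of the wild type level was not distinguished from the spread between arrays.

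Igfbp3, the main carrier of IGFs in serum and also a local regulator of cell growth, had the larger difference of the called members. Probe set 95082_at had signals of 926.8, 996.7 and 1161.3 in wild type and 250.9, 251.8 and 214.9 in LH transgenic glands. The LH transgenic arrays agreed closely with each other, and the highest of them, 251.8, was far under the lowest wild type array, 926.8. The mean fell from 1028 ± 120 to 239.2 ± 21.1 (log2 -1.79, SE 0.18, limma adjusted p 0.000369), and only 39 of the 7455 tested probe sets had a more negative difference. The size depends on the pseudocount because the LH transgenic signals are dim, with -2.10 when values were floored and none was added and -1.26 with a larger one.

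A second Igfbp3 probe set, 95083_at, was too dim to be tested. It had signals of 388.8, 170.3 and 497.5 in wild type and 234.8, 81.3 and 82.6 in LH transgenic glands. Wild type pool 2 lay below LH transgenic pool 1, so the groups overlapped. In the fit without a filter its difference was -1.01 (limma p 0.0299, adjusted p 0.145), in the same direction as the brighter probe set and not called.

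The Igfbp3 upstream sequence is shown as that of the other called member, for comparison with Igf1. It is the window of the same length and motif search (RefSeq table, GRCm38.p6, chr11:7213924-7214173, minus strand, written 5′ to 3′).
Igfbp3: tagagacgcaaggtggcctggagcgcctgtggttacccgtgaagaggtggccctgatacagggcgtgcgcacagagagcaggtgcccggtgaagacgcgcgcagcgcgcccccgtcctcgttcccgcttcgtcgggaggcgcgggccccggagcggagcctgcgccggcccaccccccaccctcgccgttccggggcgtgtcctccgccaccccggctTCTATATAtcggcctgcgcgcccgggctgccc
The capitals are overlapping TATA box matches, read on both strands, the first of which begins 32 bases upstream of the start, and 22.6% of all windows hold this motif. The Igfbp3 window was 73.2% G and C and the Igf1 window 52.8%, and they had no motif of the search in common. The STAT site and the estrogen response element, present in 7.01% and 0.064% of all windows, were not matched in the windows of the 8 members. A match in these letters is a description and not a binding site.

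Among the other binding protein genes the differences were smaller and none was called. Igfbp4, whose product mostly restrains IGF action, had 3 probe sets. The brightest, 101571_g_at, had signals of 4261.6, 4966.2 and 5861.5 in wild type and 3748.8, 3808.3 and 3270.5 in LH transgenic glands. These groups did not overlap, and the difference of -0.46 (95% interval -0.79 to -0.13) just missed the threshold (limma adjusted p 0.0524). Without wild type pool 1 it was called (-0.57, adjusted p 0.0481), and without wild type pool 3 it was -0.35 (adjusted p 0.181). The second Igfbp4 probe set, 94222_at, had 946.5, 1051.1 and 952.5 in wild type against 1122.4, 1204.9 and 789.9, with LH transgenic arrays on both sides of the wild type values (difference 0.05, 95% interval -0.34 to 0.45). The third, 101570_at, was at 33.1 to 43.6 on all 6 arrays and was not tested.

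Igfbp7, a matrix-bound relative that binds IGFs only weakly and is abundant in blood vessels, had signals of 533, 583.1 and 775.6 in wild type and 492.6, 420.8 and 374.4 in LH transgenic glands. The groups did not overlap, and the difference of -0.47 (95% interval -0.92 to -0.03) was not called after adjustment (limma p 0.0405, adjusted p 0.124). Igfbp6, which prefers IGF2 over IGF1, had 4376.7, 7156.9 and 4823.9 in wild type against 4889.1, 4029.6 and 3351.3. Wild type pool 2 stood above the rest and LH transgenic pool 1 lay within the wild type range (difference -0.39, 95% interval -0.85 to 0.07, limma adjusted p 0.207).

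Igfbp2, a binding protein known from fat and epithelium, varied within groups as much as between them. Its signals were 421.1, 887.7 and 966.3 in wild type and 943.4, 913.3 and 437.8 in LH transgenic glands. In each group 1 pool, wild type 1 and LH transgenic 3, had a much lower signal than the others. The difference was 0.02 with a wide interval of -0.73 to 0.77, so changes within that range in either direction cannot be told from none.

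**Figure D2:**
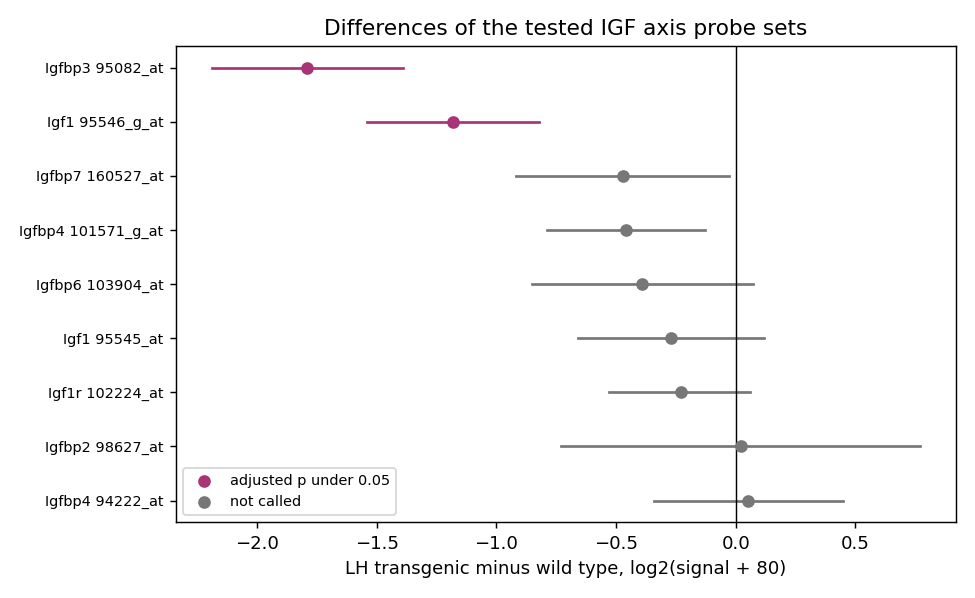
Difference between LH transgenic and wild type glands on the log2(signal + 80) scale for the 9 tested member probe sets, with 95% intervals from limma (3 arrays per group). Igfbp3 (-1.79) and Igf1 (-1.18) were called, and the other 7 were not.

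The genes around the axis were taken as 6 lists, each gene standing by its brightest probe set. Among 5732 genes tested this way 21.6% were called, 9.93% higher and 11.6% lower, with a median difference of 0.01. Of the other ligands and receptors tested, Igf2 had 1811 in wild type glands and 1238 in LH transgenic ones (-0.48, limma adjusted p 0.123) and Igf2r, the receptor that clears IGF2, 2305 and 2856 (0.29, adjusted p 0.18), so Igf1 was the 1 called gene of 4 in that list. Without wild type pool 2, Igf2 was called as well (-0.71, adjusted p 0.0243).

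Igfals encodes the acid-labile subunit, which joins IGF and IGFBP3 in the large serum complex and is known mainly from liver. It went the other way from Igfbp3. Its brighter probe set, 97987_at, had signals of 3935.7, 4670.1 and 3019 in wild type and 9918.9, 10293.4 and 6282.5 in LH transgenic glands. The groups did not overlap, and the gene rose by 1.16 (SE 0.22, limma adjusted p 0.00563). The call was lost with the level of skeletal muscle genes as a covariate (0.71, adjusted p 0.122). That level, as a centred log2 mean, was 0.66, 0.82 and 0.60 in wild type pools and -1.46, -1.17 and 0.55 in LH transgenic pools. It nearly follows the groups, so differences adjusted for it rest largely on LH transgenic pool 3. A call lost in that fit therefore cannot be read as an effect of muscle. A second Igfals probe set read only 21.3 to 114.5 on the 6 arrays, so the rise rests on 1 probe set. Igfals and Igfbp3 were the 2 called genes of 6 tested in the list of binding proteins, and both Igfbp1 probe sets were at 118 or below on every array.

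Of 9 tested genes for proteases that cut IGF binding proteins and for their inhibitors, 3 fell, and 0 were higher also before adjustment by limma (p under 0.05). The list median was -0.35. Too dim to be tested, Stc1 and Plau of this list were higher on every LH transgenic array than on any wild type array. In the fit without a filter they differed by 0.84 and 0.36 (limma adjusted p 0.0725 and 0.303). The groups of the other untested genes of the list overlapped. Htra1, a secreted serine protease, had 7747, 8533.4 and 9319.4 in wild type and 4790.8, 2868.8 and 4222 in LH transgenic glands (-1.12, limma adjusted p 0.00329). Plat, tissue plasminogen activator, fell by 0.87 (adjusted p 0.0203). Adam12, a membrane protease that cuts IGFBP3 and IGFBP5, fell by 1.14, but LH transgenic pool 1 (394) was near the lowest wild type pool (430.4). Its LH transgenic mean (214.6) was below 336, and without a filter it was not called (limma adjusted p 0.085). Plat and Adam12 were not called when any 1 wild type pool was left out, and Adam12 lost its call in 8 of 17 settings in all. The muscle covariate ended the calls of Htra1 (adjusted p 0.0523) and Plat (adjusted p 0.318). Htra1 itself carries an IGFBP domain and was the 1 called gene of 3 tested in the list of such proteins, where the matrix factor genes Ccn1 and Ccn2 had differences of -0.46 and 0.29. Ccn3 and Ccn4, too dim to be tested, were lower on every LH transgenic array than on any wild type array. Without a filter both were called (-1.03 and -1.19, limma adjusted p 0.048 and 0.042). That list then had 3 calls lower and 0 higher among 8 genes, where 10.8% of all 12422 probe sets were called.

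In the growth hormone and STAT5 route, which drives Igf1 transcription, the receptor fell while 4 other genes of the list rose. Ghr, the growth hormone receptor, had signals of 12330.7, 10605.6 and 8875.4 in wild type and 5160.2, 2849.2 and 4344.2 in LH transgenic glands. It fell by 1.38 (limma adjusted p 0.00246), and its second probe set fell by 1.43 (adjusted p 0.00904). Cebpa, a transcription factor of fat cells, fell by 0.98 (adjusted p 0.0084). Jak2, the kinase bound to the growth hormone and prolactin receptors, rose by 0.63 (adjusted p 0.0369) and Cish, a feedback inhibitor induced by STAT5, rose by 0.54 (adjusted p 0.0168). Cebpb (0.50) and Stat5a (0.41 and 0.77 by its probe sets) rose as well. In all, 4 of 11 tested genes rose and 2 fell, with a median of 0.17. Leaving out wild type pool 1 or pool 3 ended all 4 of those calls and left Ghr and Cebpa, and leaving out pool 2 ended all of them but Cish. Stat5a was followed through these settings by its brighter probe set only, which also lost its call without any 1 LH transgenic pool. Jak2 lost its call without LH transgenic pool 1 or 3 and with no filter, and Cebpb without LH transgenic pool 2. Cish and Cebpb lost theirs with the muscle covariate.

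Most genes below the receptor were not called, with 3 of 26 past the threshold (11.5%, against 21.6% of all genes) and a median of 0.05. Akt2, the AKT kinase of insulin-responsive tissues such as fat and muscle, had 5537.1, 5925.5 and 5947.2 in wild type and 2224.3, 2740.8 and 1644.1 in LH transgenic glands (-1.39, limma adjusted p 0.00102). Akt1 had 5187 ± 1156 and 7498 ± 1172 (0.54, adjusted p 0.0676), with no overlap between the groups, and of the 18 settings it was called in 2, those that left out wild type pool 2 and LH transgenic pool 3 (lowest adjusted p 0.0432), and the difference between the AKT genes was not tested. Eif4ebp1, a repressor of translation that mTOR inactivates, fell by 0.82 (adjusted p 0.00498). Irs2, an adaptor of the insulin and IGF1 receptors, rose from 112.3, 132.3 and 372.4 to 762.9, 640.1 and 792 (1.61, adjusted p 0.00713), with no overlap between the groups, and lost its call with the muscle covariate (adjusted p 0.0729). Its wild type mean (205.7) was below 336, and without a filter it was called as well (limma adjusted p 0.0203).

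**Figure D3:**
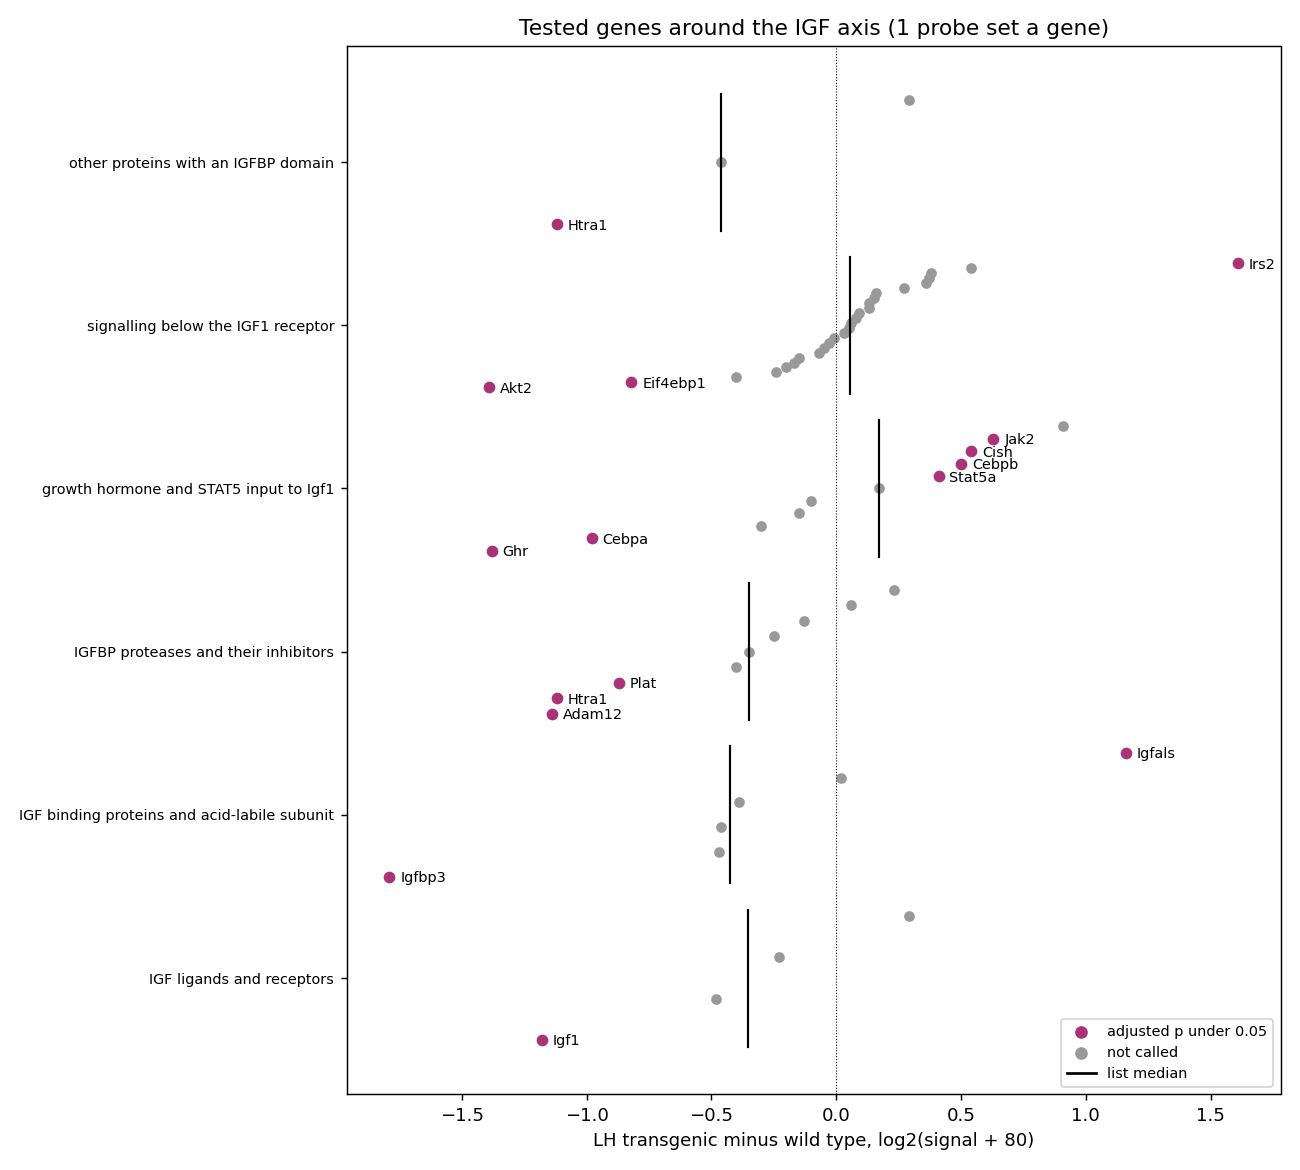
Difference between LH transgenic and wild type glands on the log2(signal + 80) scale for the tested genes of 6 lists around the IGF axis, 1 point per gene, with called genes named and a line at each list's median. Igfbp3, Akt2 and Ghr lie far to the left, and Irs2 and Igfals to the right.

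Igf1 and Igfbp3 fell together with marker genes of the stroma. Of 13 tested adipocyte markers 10 fell, of 15 fibroblast markers 11 and of 12 endothelial markers 10, with medians of -1.41, -0.86 and -0.86. Over all 5732 genes tested, 11.6% were called lower and 9.93% higher. With the muscle covariate the counts were 10, 4 and 6, and 7 fibroblast markers were called without wild type pool 3. The summed signal of the adipocyte list was 208000 to 236200 in wild type glands and 126400 to 137700 in LH transgenic ones, that of the fibroblast list 148300 to 197600 and 95760 to 125200, and that of the endothelial list 39280 to 46380 and 19110 to 22250. Within these lists some defining markers did not move with the rest, such as the fibroblast proteoglycan gene Dcn (-0.10, limma adjusted p 0.639) and the endothelial gene Pecam1 (0.12, adjusted p 0.698), while the endothelial cadherin gene Cdh5 fell by 0.77. In the adipocyte list Fabp4 (-0.33, limma adjusted p 0.172), Car3 (0.06, adjusted p 0.778) and Cidea (0.67, adjusted p 0.218) were not called. The part of these cell types in the result was not tested.

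Set beside the cell type lists, the fall of Igf1 was exceeded by 8 of 13 adipocyte, 7 of 13 skeletal muscle, 3 of 12 endothelial, 2 of 13 luminal and 1 of 15 fibroblast markers. The fall of Igfbp3 was exceeded by 3 adipocyte and 3 skeletal muscle markers and by 0 of the other lists. Its place depends on the pseudocount, since 0 adipocyte and 2 muscle markers fell more with a floor and no pseudocount, and 8 and 7 with the larger pseudocount. Skeletal muscle markers, 6 of 13 called lower (13 without LH transgenic pool 3 and 3 without LH transgenic pool 1), had a summed signal of 111900 to 128400 in wild type, 24900 and 28590 in LH transgenic pools 1 and 2, and 101800 in pool 3. That pool was also the one with the highest Igf1 signal of the transgenic group, but it had the lowest Igfbp3 signal. With the muscle level as a covariate Igf1 differed by -0.86 (limma adjusted p 0.0238) and Igfbp3 by -1.92 (adjusted p 0.00529). Macrophage markers, of which 5 of 11 rose, luminal markers (5 of 13 higher, 2 lower), basal markers (1 of 7 higher) and B and T cell markers (1 of 5 higher) had medians of 0.60, 0.19, 0.11 and -0.11. The shares called in the basal (14.3%) and B and T cell (20%) lists were below the 21.6% of all genes tested. Among the macrophage markers not called were Csf1r (0.09, limma adjusted p 0.744) and Adgre1 (0.24, adjusted p 0.598). The macrophage calls fell to 0 with the muscle covariate and to 0 on the bacterial control scale, the luminal calls to 3 higher and 1 lower with that covariate, and the B and T cell call was lost without wild type pool 1 or 3.

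**Figure D4:**
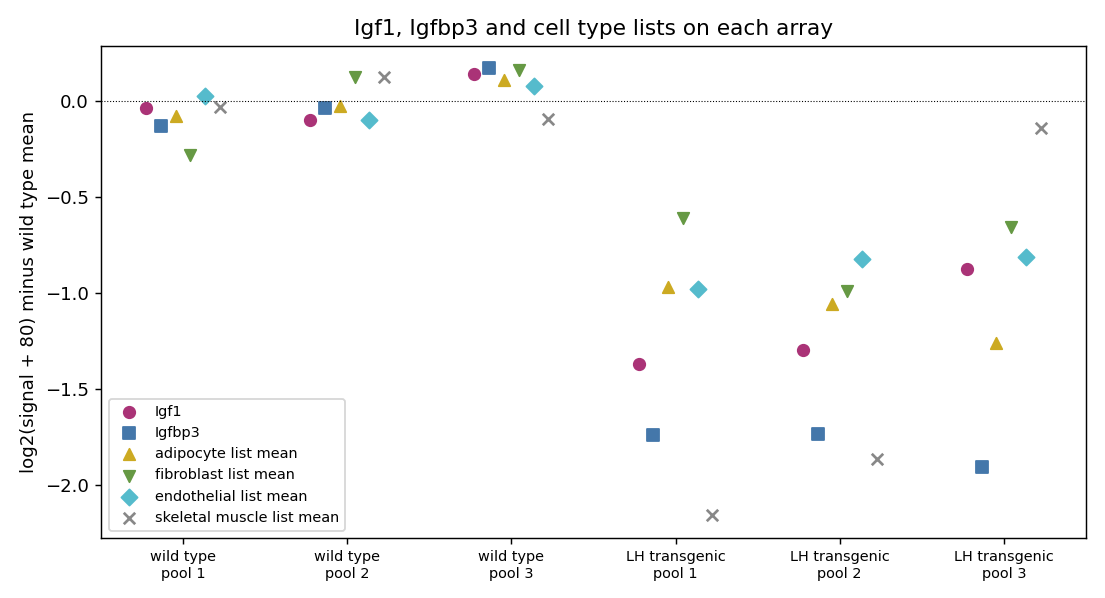
Igf1 (95546_g_at), Igfbp3 (95082_at) and the mean of 4 cell type lists on each of the 6 arrays, as log2(signal + 80) minus the wild type mean. Igf1 lay at -1.37, -1.30 and -0.88 and Igfbp3 at -1.74, -1.73 and -1.90 on LH transgenic arrays 1 to 3, while the muscle list was at -0.14 on array 3.

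The genes with the most similar profile over the 6 arrays were found by the root mean square distance between log2 profiles centred on the wild type mean, among 5731 other genes. For Igf1 they were 2310010J17Rik (distance 0.064), Mdk, which encodes the growth factor midkine (0.080), and Plbd1 (0.081). Mdk had 1422, 1357.7 and 1386.4 in wild type and 518.2, 497.6 and 702.7 in LH transgenic glands, and like Igf1 it was highest within the transgenic group in pool 3. For Igfbp3 they were Sod3, the extracellular superoxide dismutase (0.140), Plin4, a lipid droplet protein (0.141), and Slc2a4, the insulin-responsive glucose transporter (0.148). Sod3 had 8733.7, 9065.4 and 10552.8 in wild type and 3417.3, 2858.2 and 2189.2 in LH transgenic glands. Plin4 and Slc2a4 are both in the adipocyte list used here, and the distance takes in the difference between the groups.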

How the data were processed

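The authors deposited a linear intensity for every probe set on every array; the submitters' processing notes name MAS5. Software version, detection calls and genome build: not given in the sources used here. All 6 arrays were used as deposited, with groups taken from the source name in the labels; nothing there names a batch or pairs arrays. Since a group's pools came from different mice, the spread holds differences between pools. The log2 of signal + 80 was taken from what was deposited, 80 being the 20th percentile; probe sets with a mean below 336 (the 40th percentile) and 66 control probe sets were left out. limma 3.58.1 in R 4.3.3 (lmFit, eBayes with a trend, no covariates, two-sided) was fitted to 7455 probe sets with Benjamini-Hochberg adjustment over all of them, and the fit was checked on simulated data. Genes were named from probe sets annotated to 1 gene, and stand in lists by the brightest.

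The members and lists were chosen with earlier results of these data known. The naming rule took all members, up to 4 called genes per pathway list by size, the 3 nearest profiles of each called member, and Adipoq, Krt18, Dcn, Cdh5, Pecam1, Csf1r and Adgre1 among fixed markers. Other genes (Igf2, Igf2r, Igfbp1, Akt1, Cebpb, Stat5a, Stat5b, Stc1, Plau, Ccn1, Ccn2, Ccn3, Ccn4, Fabp4, Car3, Cidea, Gsk3a) were named after their values were seen. Sequences come from RefSeq tables of GRCm38.p6, used only for promoters. Other settings were another scale (quantile, median, bacterial controls), pseudocount, filter, variance model, array weights, a covariate, the mean of a gene's probe sets, and leaving out each array.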

Additional observations from a re-analysis of the deposited data

How the results depend on the processing

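Igf1 (95546_g_at) and Igfbp3 (95082_at) kept their direction and their calls under every setting run, with differences of -1.76 to -0.86 and -2.29 to -1.26; for Igfbp3 no value was available with the stricter filter, a mean of at least 933. The 9 bacterial hybridisation controls as the scale moved the median of all tested probe sets from 0.02 to -0.53. On that scale 7 members were called lower, against 2, and Igf1 and Igfbp3 lay 1.23 and 1.75 below that median (-1.76 and -2.29 against -0.53). It called 33 pathway genes (31 lower) against 15, and 3564 probe sets (181 higher, 3383 lower) against 1586 (781 higher, 805 lower). Like most tested probe sets, those of Stat5a (-0.18, the brighter), Cish (-0.03), Cebpb (-0.09), Gsk3a (-0.54) and Krt18 (-0.55) then had differences below 0. Stat5a, Cish and Cebpb still lay above the median of -0.53, and Gsk3a and Krt18 lay close to it. Adding the level of muscle genes as a covariate left 9 pathway genes, 28 cell type genes (against 51) and 740 probe sets called, in a fit with fewer residual degrees of freedom. Because that level nearly follows the groups, the adjusted differences rest largely on LH transgenic pool 3. Leaving out 1 array gave 2 to 3 members, 9 to 14 pathway genes, 41 to 60 cell type genes and 941 to 1641 probe sets, the fewest probe sets without wild type pool 3 (941) and pool 1 (1056). The robust fit and the B and T cell covariate each added Igfbp4 (adjusted p 0.0494 and 0.0257), as did the stricter filter (0.045), and the cause was not tested. MAS5 scales each array to 1 target, which hides any common shift of most genes. With 3 arrays per group small differences, and those of dim probe sets, could be missed.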
